A study of Mus musculus with 6 samples.

Results

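Genes of secreted ribonucleases, Rnase1, Rnase4 and Ang, and the gene of the protein that inhibits them, Rnh1, were followed in aortic endothelial cells of mice infused with angiotensin II (AngII) or saline. They were taken by symbol from a table of 17067 genes, and all 4 were present. They were proposed with the difference between these same groups already known, so their values in the groups are a description and no test is given for them. The samples came from wild-type C57BL/6 mice. At 8 weeks of age these received osmotic pumps under the skin that delivered AngII at 1000 ng per kg per minute for 14 days, and the controls underwent the same surgery with saline in the pump. The cells measured were not taken straight from the vessel. In both groups aortas were cut into 2 mm pieces, laid on Matrigel and kept in culture medium supplemented with antibiotics, heparin (25 U/mL), an endothelial growth factor (10 ng/mL) and fetal calf serum (20%), and endothelial cells grew out after 5 to 7 days. Each group held 3 samples. The labels give neither the sex of the mice nor whether a sample is 1 animal or a pool, so the spread between samples may be technical.

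RNase A-type ribonucleases are small secreted enzymes that cut single-stranded RNA. RNase 1 is the form that human endothelial cells release in quantity, and it degrades RNA set free by damaged cells, which can otherwise promote clotting and leakage of the vessel wall. RNase 4 and angiogenin, the product of Ang, are relatives with weaker or more selective activity. Angiogenin induces vessel growth, enters cells and cuts transfer RNA under stress. The ribonuclease inhibitor encoded by Rnh1 is a leucine-rich repeat protein of the cytosol that binds such enzymes very tightly and so protects the RNA of the cell from those that enter it.

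The 3 ribonuclease genes lie together on mouse chromosome 14 (GENCODE M21, GRCm38). Rnase4 spans 51091077 to 51106151 and Ang 51091150 to 51102009, both on the plus strand, with Ang nested inside Rnase4. Rnase1 spans 51144998 to 51146785 on the minus strand, 38846 bases beyond the end of Rnase4. Rnh1 lies apart, on chromosome 7 from 141160326 to 141172857. Rnase4 and Ang begin with overlapping untranslated first exons, which differ in where they start, and splice to separate last exons, each of which carries a whole protein. They share 219 exonic bases, 18.2% of the exonic length of Ang and 13.4% of that of Rnase4. Of the windows of 50 bases in the annotated transcripts, 14.5% of those of Ang also occur in Rnase4 or in Ang2, and 7.75% of those of Rnase4 also occur in Ang. At 100 bases these shares were 2.09% and 1.5%, between Ang and Rnase4 alone. None of the windows of Rnase1 or Rnh1, at either length, occurs in a transcript of any other gene. Reads that fall wholly in the shared exons cannot be told apart between Rnase4 and Ang, and how they were divided is not given in the sources used here. Since the saline samples held 1897 counts of Rnase4 and 196 of Ang in all, such reads could be a small part of the count of Rnase4 but a large part of that of Ang.

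**Figure D1:**
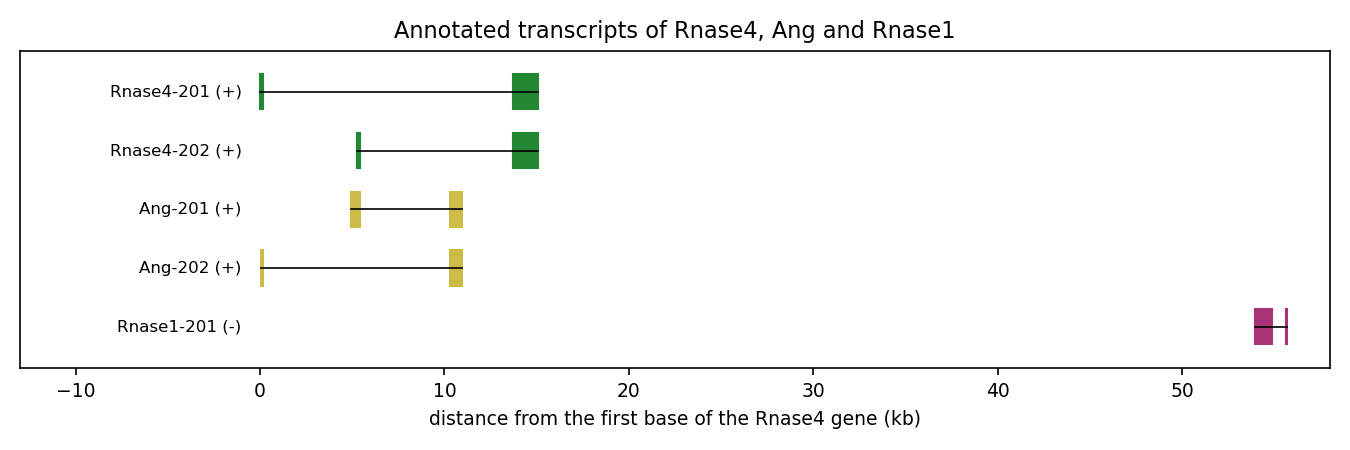
Annotated transcripts of Rnase4, Ang and Rnase1 (GENCODE M21), drawn to scale against the distance in kb from the first base of Rnase4. Boxes are exons, lines are introns and the sign is the strand. Each first exon of Rnase4 overlaps a first exon of Ang, while their last exons are separate and Rnase1 lies 38846 bases beyond.

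The promoter windows are shown because Rnase4 and Ang share one and Rnase1 does not. Each runs from 250 bases before to 50 bases after the annotated start (RefSeq, GRCm38.p6), is written 5′ to 3′ on the strand of its gene, and has matches to the motifs searched in capitals. The window of Rnase1 is chr14:51146718-51147017, minus strand. That of Rnase4 and Ang is chr14:51090827-51091126, plus strand, and that of the most upstream of 3 annotated starts of Rnh1 is chr7:141172802-141173101, minus strand.
Rnase1: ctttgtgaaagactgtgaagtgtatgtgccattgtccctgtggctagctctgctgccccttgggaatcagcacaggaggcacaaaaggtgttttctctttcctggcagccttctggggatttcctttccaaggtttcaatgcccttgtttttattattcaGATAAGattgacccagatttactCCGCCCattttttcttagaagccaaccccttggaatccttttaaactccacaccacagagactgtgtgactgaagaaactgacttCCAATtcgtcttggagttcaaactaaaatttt
Rnase4 and Ang: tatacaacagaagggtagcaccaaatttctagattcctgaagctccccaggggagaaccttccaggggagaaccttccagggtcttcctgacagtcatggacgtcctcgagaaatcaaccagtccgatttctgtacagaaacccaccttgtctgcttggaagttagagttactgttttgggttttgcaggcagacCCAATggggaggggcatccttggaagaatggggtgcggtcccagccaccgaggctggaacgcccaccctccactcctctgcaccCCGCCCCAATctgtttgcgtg
Rnh1: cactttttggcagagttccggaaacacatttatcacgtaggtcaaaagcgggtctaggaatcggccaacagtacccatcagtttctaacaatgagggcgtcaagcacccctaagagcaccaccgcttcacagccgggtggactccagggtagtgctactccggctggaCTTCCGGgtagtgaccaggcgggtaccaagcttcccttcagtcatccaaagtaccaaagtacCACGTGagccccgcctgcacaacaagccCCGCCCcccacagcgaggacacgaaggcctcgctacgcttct

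Among 32817 distinct promoter windows in the table, 34 (0.104%) served more than 1 gene, and that of Rnase4 and Ang was one of them. Rnase4 also had a second annotated start, with a window that RefSeq listed for no other gene. In GENCODE, however, an Ang transcript (Ang-201) begins inside that window, at base 51096000. The letters searched, on both strands, were those of the TATA box TATAAA, found in 13.6% of all windows, the letters CCAAT in 37.4%, the GC box GGGCGG in 35.6% and the E-box CACGTG in 7.15%. The AP-1 motif TGANTCA was in 7.81% of windows, the composite element of CHOP and ATF4, TGATGNAA, in 3.97%, the ETS motif CCGGAAG in 8.86% and the GATA-factor motif, spelled GATAAG, in 7.45%. The Rnase1 window held GATAAG, the GC box on the opposite strand and, after the start, CCAAT. The shared window held CCAAT at 2 places, one before the start and one after it. The latter overlapped by 1 base a GC box on the opposite strand, also after the start. The Rnh1 window shown held an E-box and the ETS letters before the start and a GC box after it, the latter 2 on the opposite strand. Its other windows, not shown, held a TATA box at one start and GC boxes and an AP-1 match at the other. GC content was 43.7% for Rnase1, with 2 CpG dinucleotides, against 54.7% with 8 for the shared window and 57.0% with 17 for the Rnh1 window shown. The median of all windows was 52.7%.

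Total counts per sample ran from 21154724 to 23004780 with saline and from 22646065 to 25141992 with AngII. Levels are given as CPM (counts scaled to the size of the library by the TMM method), and per kb of exonic length where genes are compared with each other. The cells carried most of the listed markers of their label. Of 16 listed endothelial markers the table held 14, without Cldn5 and Sox17, and all 14 passed the filter on low counts. Their summed level was 6750 to 6831 CPM with saline and 6360 to 6967 CPM with AngII. Single markers differed, with 5 higher and 7 lower with AngII by edgeR's test, against 29.0% and 28.6% of all tested genes. Cdh5 was among the higher (1195 and 1384 CPM) and Robo4 among the lower (601 and 385 CPM). Vwf, also lower, stood at only 10.7 CPM with saline and 8.12 CPM with AngII. Markers of other cell types were partly present and are given after the gene lists.

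Rnase1 was about 3 times as abundant in cells of AngII-infused mice. Its level was 5.84, 7.30 and 5.55 CPM in saline replicates 1 to 3 and 19.7, 19.5 and 17.5 CPM in AngII replicates 1 to 3. The groups were far apart, with the lowest AngII sample 2.39 times the highest saline sample. The means were 6.23 ± 0.941 and 18.9 ± 1.23 CPM (SD, n = 3), a log2 fold change of 1.60 ± 0.0942 (SE). These rest on 413 counts in all with saline and 1342 with AngII. Only 32 of the 12277 tested genes had a larger positive log2 fold change, and 166 genes in all were higher by 2-fold or more.

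Rnase4 was lower in cells of AngII-infused mice, by a smaller factor than Rnase1 was higher. It stood at 30.2, 27.8 and 27.9 CPM in the saline samples and at 17.2, 16.0 and 16.8 CPM in the AngII samples. Every saline sample was above every AngII sample, by at least 1.61 times. The means were 28.6 ± 1.35 and 16.7 ± 0.637 CPM (SD, n = 3), which is 1.72-fold lower with AngII, or a log2 fold change of -0.78 ± 0.0601 (SE). An absolute log2 fold change larger than that of Rnase4 was found in 6.76% of tested genes.

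Ang was the least abundant of the 4 genes, also per kb, and the least precisely measured. It had 59, 54 and 83 counts in the saline samples and 56, 55 and 56 in the AngII samples, or 2.78, 2.45 and 3.60 CPM against 2.35, 2.45 and 2.24 CPM. The lowest saline sample and the highest AngII sample were almost level, and saline replicate 3 stood above all others. The means were 2.94 ± 0.592 and 2.35 ± 0.103 CPM (SD, n = 3), and the log2 fold change was -0.33 ± 0.166 (SE). Without saline replicate 3 it was -0.15 ± 0.172. For a single sample, counting error alone was 12.4% of the level with saline and 13.4% with AngII, while the saline samples varied by 20.1% (coefficient of variation) and the AngII samples by 4.38%. The size of the difference in Ang thus rests largely on saline replicate 3.

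Rnh1, the inhibitor, was the most abundant of the 4, also per kb, and differed least. It stood at 134.9, 128.0 and 139.3 CPM with saline and at 120.2, 124.6 and 125.0 CPM with AngII. The groups did not overlap, though the lowest saline sample was only 1.02 times the highest AngII sample. The means were 134.1 ± 5.68 and 123.3 ± 2.70 CPM (SD, n = 3), a log2 fold change of -0.12 ± 0.0360 (SE), and 65.6% of tested genes had a larger absolute change. Non-overlapping groups were thus found for all 4 genes, and for 62.7% of all tested genes, 31.3% higher with AngII and 31.4% lower. Since the genes were chosen on this contrast, nothing is read from that count.

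**Figure D2:**
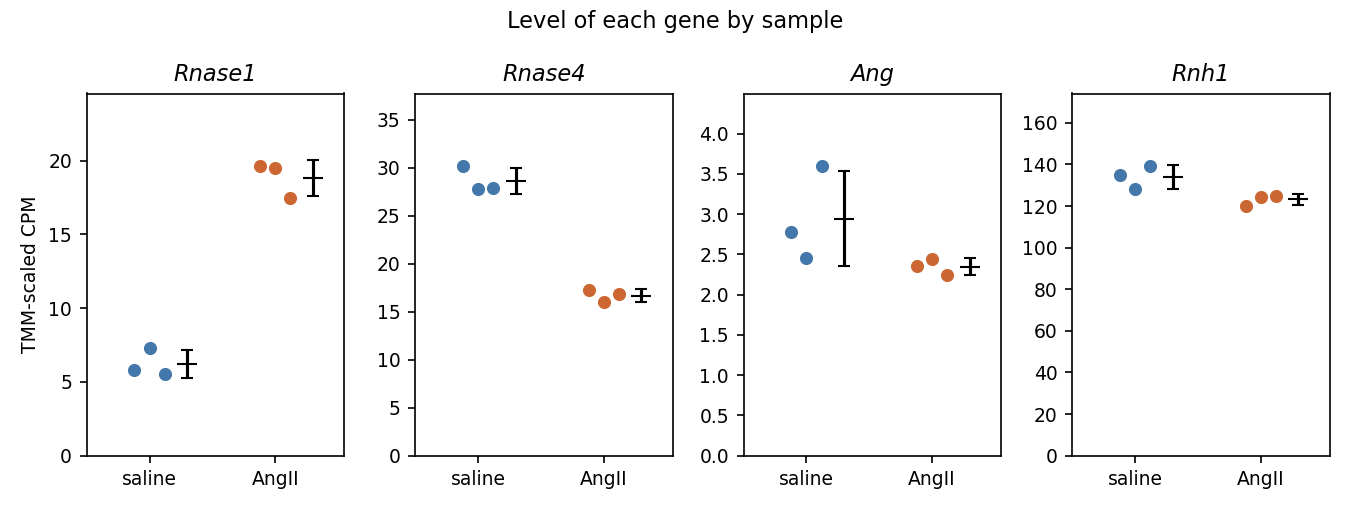
TMM-scaled CPM of Rnase1, Rnase4, Ang and Rnh1 in each of the 6 samples (points), with the mean and SD of each group (bars, n = 3); each panel has its own axis, which starts at 0. Rnase1 was higher in all AngII samples (17.5 to 19.7 CPM) than in any saline sample, Rnase4 was lower, and the points of Ang and Rnh1 nearly touch between the groups.

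**Figure D3:**
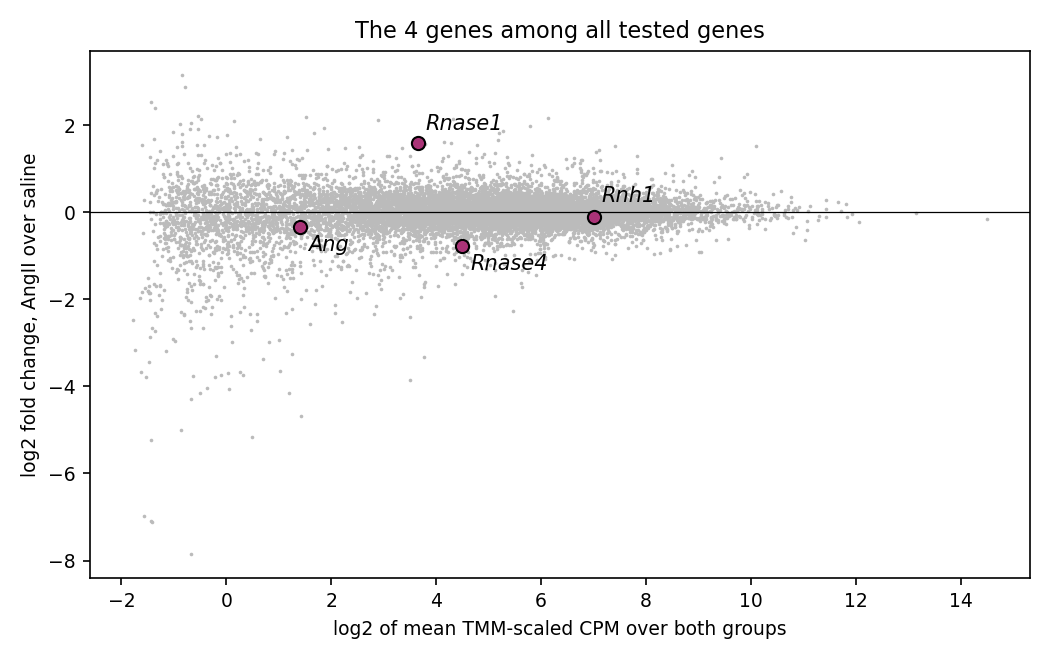
Log2 fold change, AngII over saline, against the log2 of the mean TMM-scaled CPM for the 12277 tested genes (grey), with Rnase1, Rnase4, Ang and Rnh1 marked. Rnase1 lies at the upper edge at 1.60, Rnase4 at -0.78 in the lower part, and Ang and Rnh1 within the body of the genes.

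Per kb of exonic length the order of the genes changed with the group. With saline it was Rnh1 (51.7 ± 2.19 CPM per kb), Rnase4 (17.5 ± 0.822), Rnase1 (6.28 ± 0.949) and Ang (2.45 ± 0.492). With AngII Rnase1 came second (19.0 ± 1.24), ahead of Rnase4 (10.2 ± 0.389), while Rnh1 (47.5 ± 1.04) stayed first and Ang (1.95 ± 0.0854) last (SD, n = 3). Within each group, neighbours in these orders did not overlap between samples. Over both groups, 7.21% of the 11783 tested genes with a length had a higher level per kb than Rnh1, 30.5% than Rnase4, 33% than Rnase1 and 75.9% than Ang.

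The make-up of the ribonuclease transcripts turned over. Rnase1 accounted for 22.1%, 27.9% and 21.8% of their summed level per kb in the saline samples and for 61.4%, 62.5% and 59.2% in the AngII samples. Rnase4 went the other way, from 69.2%, 64.4% and 66.5% to 32.6%, 31.0% and 34.5%. The level of Rnase1 was 0.319 to 0.433 of that of Rnase4 with saline and 1.71 to 2.01 times it with AngII. These shares are ratios within a sample and do not depend on library scaling. The share of Ang was 7.72% to 11.7% with saline and 6.06% to 6.48% with AngII.

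The sum of the 3 ribonucleases moved far less than Rnase1 or Rnase4. Per kb it was 26.2 ± 0.528 with saline and 31.1 ± 1.31 with AngII (CPM per kb, SD, n = 3), or 1.19 times as high. In CPM without the length it was 37.8 ± 0.903 and 37.9 ± 1.36, so the difference in the sum appeared only once the shorter Rnase1 transcript was weighted by its length. Per kb, Rnh1 stood at 1.95, 1.87 and 2.10 times that sum in the saline samples and at 1.44, 1.53 and 1.62 times it in the AngII samples. Against Rnase1 alone, Rnh1 was 6.70 to 9.60 times as abundant with saline and 2.34 to 2.74 times with AngII. The ratio of Rnh1 to the sum depends on the length used. Its means were 1.97 ± 0.114 with saline and 1.53 ± 0.0935 with AngII per kb of exonic length (SD, n = 3). With the mean transcript length they were 3.49 ± 0.179 and 2.82 ± 0.169. Without length scaling they were 3.55 ± 0.187 and 3.26 ± 0.183, and there the groups overlapped. Rnase1 made up 21.9% and 58% of the sum with the mean transcript length, and 16.5% and 49.8% without length scaling. These are ratios of transcripts, and no protein was measured.

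**Figure D4:**
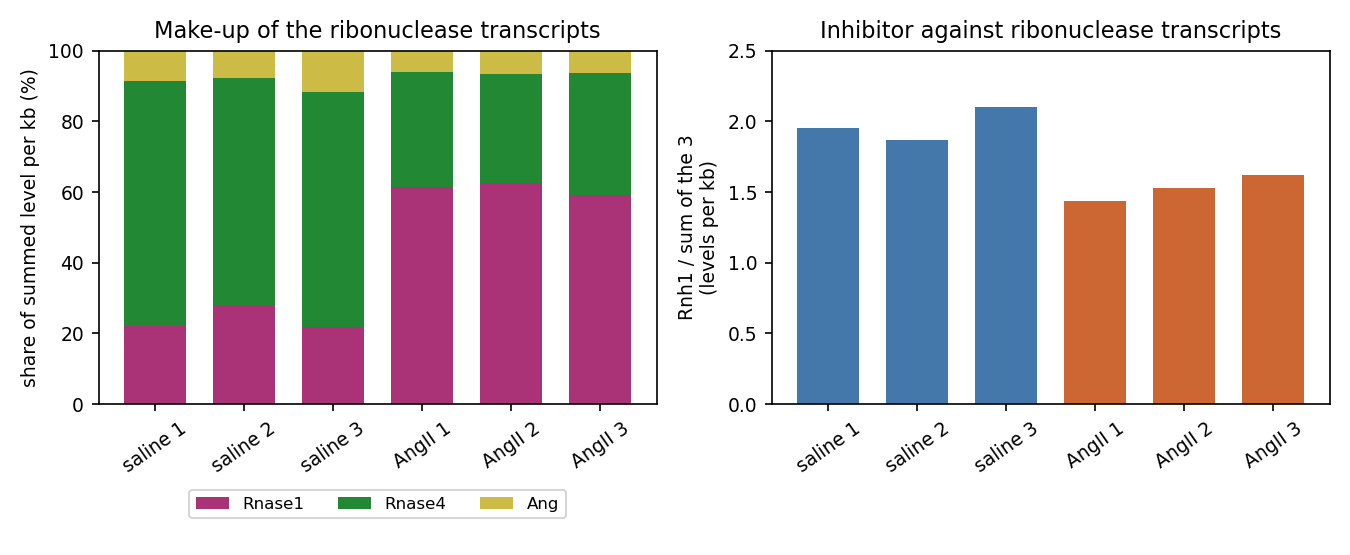
Left, share in percent of the summed level per kb of Rnase1, Rnase4 and Ang in each sample; right, the level of Rnh1 per kb divided by that sum. Rnase1 makes up 21.8% to 27.9% with saline and 59.2% to 62.5% with AngII, and the ratio on the right is 1.87 to 2.10 with saline and 1.44 to 1.62 with AngII.

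Other ribonucleases of the RNase A type were hardly detected. Of 26 further family members in mouse that were looked up, the table held 5, Rnase2b, Rnase6, Rnase10, Ang2 and Ear6, and none passed the filter. Rnase10, the most abundant of them, had 27 counts over the 6 samples, and each of the others had 1 or 2. Rnase1, Rnase4 and Ang were thus the 3 genes of the family that were measured well enough to be tested.

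For each of the 4 genes, the genes of most similar pattern were sought among the 10083 genes averaging 5 CPM or more, by the root mean square difference of log2 level over the 6 samples after the saline mean was subtracted. For Rnase1 these were Gpihbp1 (0.150), Rpn1 (0.159), Fosb (0.159) and Pycr1 (0.175), where the median over all genes was 1.13. For Rnase4 they were Pidd1 (0.0149), Cacnb3 (0.0280), Cyp4f17 (0.0281) and Ajuba (0.0391), where the median was 0.56. For Ang, Ghdc (0.0523) and Adprs (0.0868) came first, then Fdxr (0.0913) and Tmem216 (0.101), with a median of 0.287. For Rnh1 they were Cops8 (0.0132) and Spring1 (0.0148), then Mrps5 (0.0192) and Hadhb (0.0194). There the median was only 0.158, so being close to Rnh1 sets a gene little apart. The 4 medians follow the size of each gene's own fold change, so a distance below the median does not by itself show a close match. The closest match to Rnase1 (0.150) was more distant than the closest match to any other of the 4 genes. The measure covers 6 samples in 2 groups, and a gene is close on it when its difference between the groups and its deviations within them are both similar.

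The genes beside the members were also looked up, 4 distinct ones on chromosome 14 and 4 on chromosome 7, beside Rnh1. Among the 8 distinct neighbours, the 2 nearest tested genes on each side of each, 0 rose, 4 fell and 4 did not pass, by edgeR's quasi-likelihood test with Benjamini-Hochberg adjustment over all 12277 tested genes. Of all tested genes 57.6% passed, 29.0% higher and 28.6% lower, and nothing is read from so few neighbours. Nearest to Rnase1 beyond the other ribonucleases was Gm7247, 215 kb away (log2 fold change -0.23, edgeR adjusted p = 0.464), at 1.10 CPM with saline and 0.942 CPM with AngII. Next came Gm5622, which overlaps Gm7247 on the same strand (-0.16, edgeR adjusted p = 0.541), at 1.59 and 1.42 CPM. On the far side of Rnase4, Pnp, which encodes purine nucleoside phosphorylase, had a log2 fold change of -0.24 (edgeR adjusted p = 2.4e-04), and Gm49342, which overlaps Pnp and can share its reads, one of -0.23. Beside Rnh1, Hras, a small GTPase gene 16.2 kb away, was 1.64-fold lower (edgeR adjusted p = 1.8e-09), while Ptdss2 (log2 fold change -0.18, adjusted p = 0.0580) and Sigirr (-0.01, adjusted p = 0.865) did not pass. Lrrc56 fell by 0.43 (edgeR adjusted p = 0.0174), a call lost in DESeq2 (adjusted p = 0.0686) and without 4 of the 6 samples (0.0521 to 0.0703).

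Plxnb2, which encodes plexin B2, a receptor through which angiogenin acts on its target cells, fell from 547 ± 10.5 to 325 ± 11.2 CPM (SD, n = 3), 1.69-fold lower (edgeR adjusted p = 1.2e-12). In the list of angiogenin receptors and surface partners 6 of 9 tested members rose and 3 fell, with a median log2 fold change of 0.13. The median of all tested genes was 0.00, and 57.6% of them passed, 29.0% higher and 28.6% lower. The counts of every list are to be set beside these shares. The syndecan gene Sdc4 was 1.52-fold lower, while the plasminogen activator genes Plat (1.30-fold) and Plau (1.31-fold) rose. Egfr, another reported partner, was below the filter.

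Listed nucleases and related genes of lysosomes or the space outside the cell were lower as far as they passed. Of 13 tested members of this list, 0 rose and 9 fell (69.2% passing, against 57.6% of all tested genes), with a median log2 fold change of -0.29. Sidt2, which carries RNA into lysosomes, fell from 78.6 ± 3.92 to 40.1 ± 0.416 CPM (SD, n = 3; edgeR adjusted p = 1.3e-12). Pld3, a lysosomal exonuclease of single strands, was 1.45-fold lower. The lysosomal ribonucleases of the T2 type, Rnaset2a (1.29-fold) and Rnaset2b (1.16-fold), were also lower, and as near-identical copies their separate counts are uncertain. Not every gene of this list encodes a nuclease, Sidt2 being one that does not, and the list was chosen with earlier results known.

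Genes inside the cell that angiogenin or stray ribonuclease could bear on were mixed. In the list of tRNA cleavage, protection and stress granules 10 of 21 rose and 4 fell (66.7% passing, median log2 fold change 0.13). Of all tested genes 57.6% passed. Mettl1 (1.94-fold) and Trdmt1 (1.61-fold), which methylate transfer RNA, were higher, Trmt1, a further tRNA methyltransferase gene, changed by -0.25 and Ybx1, an RNA-binding protein gene, by -0.14. In the list of rRNA transcription, which angiogenin is known to stimulate, 13 of 22 rose and 3 fell (72.7% passing, median 0.15). The nucleolar genes Ncl (1.62-fold) and Nop58 (1.44-fold) were higher, and Rrn3 (-0.33) and Polr1e (-0.35), of the RNA polymerase I machinery, were lower on the log2 scale.

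Of cytosolic RNA decay nucleases 20 of 37 rose and 2 fell (median log2 fold change 0.13). In all 59.5% of them passed, near the 57.6% of all tested genes. Dcp2, the decapping enzyme (1.44-fold), and Ern1, the IRE1 stress sensor with a ribonuclease domain (1.41-fold), were higher, Rnaseh2c was 1.28-fold lower, and Zc3h12c changed by -0.15, a call lost without saline replicate 1 (edgeR adjusted p = 0.0534), when the count that fell was 1. Of the RNA sensing list 10 of 18 rose and 2 fell (66.7% passing, median 0.25). Among them were Oas3 (1.46-fold) and Dhx58 (1.53-fold) upward and the adaptors Myd88 (-0.51) and Mavs (-0.24) downward. Tlr3, the endosomal receptor of double-stranded RNA, was 1.08-fold higher (edgeR adjusted p = 0.0404), which did not pass in DESeq2 (adjusted p = 0.132), with library totals (0.0629), with a filter of at least 5 CPM (0.05), or without any 1 of 5 of the 6 samples (0.0558 to 0.129). In the list of inflammasome genes, with which the inhibitor Rnh1 has been linked, 2 of 11 rose and 3 fell (45.5% passing, median -0.06). Nlrp1b, Nlrp3, Nlrc4, Pycard and Casp1 of that list were below the filter. Casp4 was 1.44-fold higher, and Il18 (2.43-fold, at only 2.28 and 0.942 CPM with saline and AngII) and Gsdmd (1.21-fold) were lower. Nod1 (1.20-fold higher) lost its call without saline replicate 1, AngII replicate 1 or AngII replicate 2 (edgeR adjusted p = 0.05 to 0.0635), leaving 1 that rose.

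Endothelial cells keep secreted proteins in Weibel-Palade bodies, from which human cells also release RNase 1. In that list of cargo and exocytosis genes 8 of 30 rose and 16 fell, with a median log2 fold change of -0.11. In all 80.0% passed, against 57.6% of all tested genes, of which 29.0% were higher and 28.6% lower. Angpt2 (1.16-fold) and Plat rose, while Selp (1.45-fold) and Vamp8, a gene of vesicle fusion (1.66-fold), were lower. At a minimum of 5 CPM in 3 samples 5 rose.

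**Figure D5:**
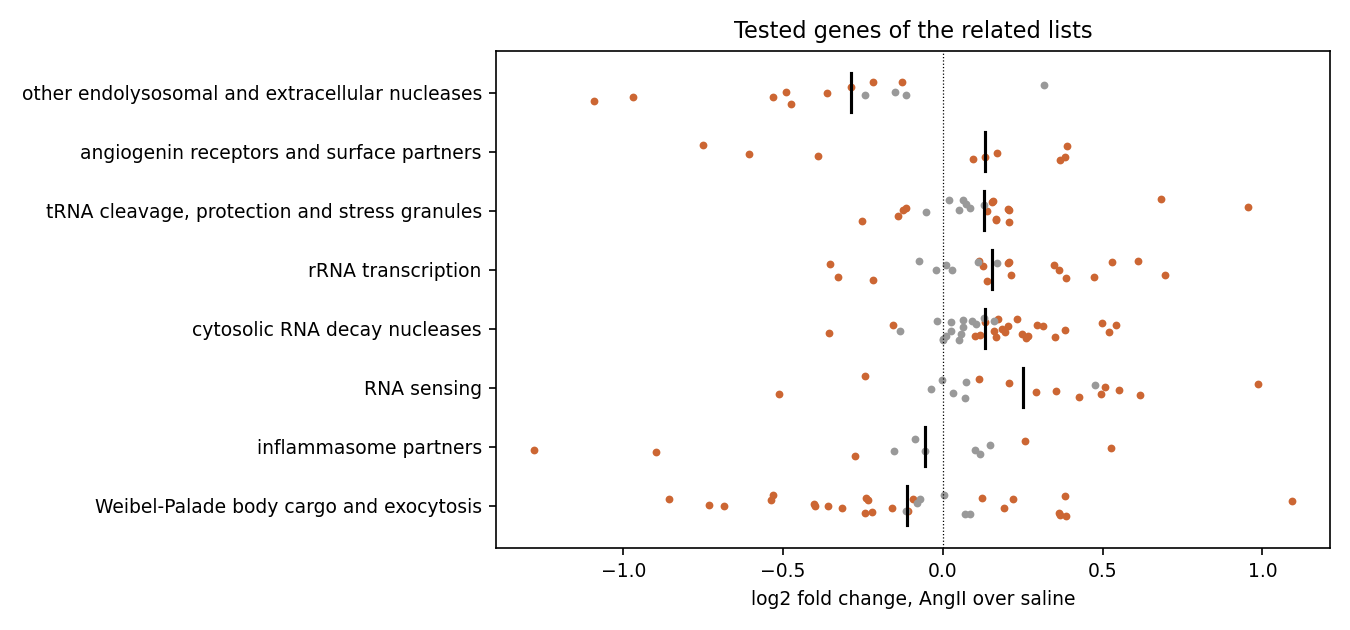
Log2 fold change, AngII over saline, of each tested gene in the 8 related lists; orange points passed edgeR's test at an adjusted p of 0.05, grey points did not, vertical bars are list medians and the vertical spread of points within a list has no meaning. The list of endolysosomal and extracellular nucleases and related genes has the lowest median, -0.29, and the RNA sensing list the highest, 0.25.

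Some markers of other cell types also differed between the groups. Of all tested genes 57.6% passed, 29.0% higher and 28.6% lower, and nothing is read from so few markers of a type. Of the 9 fibroblast markers in the table, Pdgfra, Col3a1, Pi16 and Fbln1 passed the filter and all 4 were higher with AngII, while Col1a1, Col1a2, Dcn, Lum and Mfap5 were below it. Their summed level was 20.6 to 22.9 CPM with saline and 30.1 to 33.8 CPM with AngII. The 10 smooth muscle markers summed to 156.6 to 158.2 and 159.8 to 164.3 CPM, most of it Smtn, which was higher with AngII (87.5 and 109 CPM), and Mylk, which was lower (61.9 and 49.1 CPM). Of the 5 that passed the filter 4 were lower, with a median log2 fold change of -0.90, among them Des (1.59 and 0.152 CPM) and Myh11 (0.958 and 0.183 CPM), and Acta2, Tagln, Cnn1, Myocd and Lmod1 were below it. The 9 leukocyte markers summed to 271.9 to 276.3 and 264.8 to 280.6 CPM, nearly all of it Cd68, while Lyz2 was higher (2.51 and 3.33 CPM) and Ptprc was below the filter. The 5 adipocyte markers summed to 15.7 to 17.3 and 21.1 to 25.4 CPM, with 2 of 3 tested higher and 1 lower, and the 9 mesothelial and epithelial markers to 5.27 to 5.90 and 2.36 to 2.92 CPM, with 2 of 3 tested lower. These counts cover only the listed markers that the table holds, and each of those had at least 1 count in the 6 samples. The part of these cells in the levels of Rnase1, Rnase4, Ang and Rnh1 was not tested, and fewer cells of a type and less RNA per cell cannot be told apart in bulk samples.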

How the data were processed

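The authors aligned mRNA reads with HISAT2 to mm10 (per the submitters' processing notes) and deposited a table of estimated counts per gene symbol, not scaled to library size. Of its values, 83.0% were whole numbers. The quantifier, annotation, strand setting and filters are not given in the sources used here. Columns were matched to samples by title, with 0 left unmapped. The counts were rounded and fitted in edgeR 4.0.16 (R 4.3.3) with TMM scaling, filterByExpr (minimum count 10, minimum total 15, 12277 genes kept) and the quasi-likelihood F-test, with Benjamini-Hochberg adjustment over all tested genes and a threshold of 0.05. The fit was tested on simulated data. Standard errors (SE) were taken as the absolute log2 fold change over the root of the F statistic. Exonic lengths and positions are from GENCODE M21, which held 15978 of the 17067 symbols once, and promoters are from RefSeq GRCm38.p6.

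Genes, gene lists and the naming rule were chosen with earlier results of these data known. Named were the 4 genes, at most 2 members a direction with the smallest p-values from each list, Plxnb2, Rnaset2a, Rnaset2b and Tlr3, the family members, the neighbours and the 4 genes of closest pattern (log2 CPM, prior count 2). A further gene under the rule is not reported here. Alternatives were median-of-ratios factors, library totals, 2 filters, DESeq2 1.42.0, limma-voom (limma 3.58.1), a replicate block and the omission of each sample in turn. Other length scalings were added after seeing the data. Samples of the same group were further apart than counting noise allows (chi-square per degree of freedom 2.39 to 5.86), so each sample was counted once.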

Additional observations from a re-analysis of the deposited data

How the results depend on the processing

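Over 13 alternative settings (12 for Ang, which the filter of at least 5 CPM removed) the log2 fold change of Rnase1 ranged from 1.52 to 1.73, that of Rnase4 from -0.80 to -0.74, that of Ang from -0.45 to -0.15 and that of Rnh1 from -0.16 to -0.09, each without a change of sign. Between 6024 (DESeq2) and 7323 genes passed, against 7072 as reported. The summed ribonuclease level per kb, 1.19 times as high with AngII, was 1.0 times without length scaling and 1.14 times with the mean transcript length, since Rnase1 is shorter than Rnase4, and 1.17 to 1.22 times with a sample left out. With at least 5 CPM in at least 3 samples, which tests fewer genes, 1 inflammasome gene fell in place of 3 and 5 Weibel-Palade genes rose in place of 8. With a sample left out, 1 to 2 inflammasome genes rose, 1 to 2 cytosolic decay nucleases fell, and the log2 fold change of Sigirr, which did not pass, ranged from -0.036 to 0.013. Of 41 single genes, 35 kept direction and call in every setting run, 4 lost the call somewhere (Tlr3, Lrrc56, Nod1 and Zc3h12c), 1 gained it (Ptdss2) and 1 changed sign (Sigirr). The cause was not tested.

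Replicate numbers did not pair the samples. Deviations of same-numbered samples correlated by 0.083, 0.052 and 0.008, and 3 of 6 samples correlated best with their own number. With the replicate number as a block 7204 genes passed, and the log2 fold changes were 1.60 for Rnase1, -0.78 for Rnase4, -0.33 for Ang and -0.12 for Rnh1. Of the 4 genes Ang had the fewest counts, 196 with saline and 167 with AngII, and the largest SE.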
